A study of Mus musculus with 2 samples.

Results

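The human HGF and MET transgenes, their mouse counterparts Hgf and Met, the pro-HGF activating proteases St14, Hpn and Hgfac and the protease inhibitors Spint1 and Spint2 were followed through 2 single-cell RNA-seq libraries of mouse prostate lesions. These 9 genes were chosen by name among 28000 features, and all 9 had unique molecular identifiers (UMIs) in both libraries. The DoubleTg library came from prostatic adenocarcinoma of hHGFtg:H11hMET/+:PBCre4 mice, and the TripleTg library from prostatic carcinoma of hHGFtg:H11hMET/+:Ctnnb1L(Ex3)/+:PBCre4 mice. Both genotypes therefore carried the human HGF transgene hHGFtg and the human MET transgene hMETtg, whose flag-tagged coding sequence sits behind a CAG promoter and a floxed STOP cassette that Cre removes. The Cre was driven by the probasin promoter, which is active mainly in prostate epithelium, and TripleTg mice had in addition a floxed Ctnnb1 exon 3, whose loss stabilises beta-catenin. The study describes the DoubleTg tissue for single-cell work as holding high-grade prostatic intraepithelial neoplasia beside cancer. The mice were of mixed C57BL/6 and C3H SCID backgrounds. Their ages and any pooling of animals for these libraries were not given in the sources used here. With 1 library for each genotype, differences between genotypes have no replicate check and no test was made. All 95% intervals cover counting error only, and differences of genotype, tumour, animal and library cannot be told apart.

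HGF is secreted as an inactive single chain, pro-HGF, and signals only after a serine protease has cut it. Activated HGF binds MET, a receptor tyrosine kinase, and in most organs the ligand is made by mesenchymal cells and the receptor by epithelium. HGFAC is a secreted activator of pro-HGF, and matriptase (St14) and hepsin (Hpn) are activators anchored in the cell membrane. HAI-1 (Spint1) and HAI-2 (Spint2) are membrane-bound Kunitz-type inhibitors of these proteases.

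The DoubleTg library held 12072 cells, of which 10598 (87.8%) had more than 200 and fewer than 7000 genes and under 15% mitochondrial UMIs. All 9492 TripleTg cells lay within these limits. Kept cells had a median of 16761 UMIs in DoubleTg and 20097 in TripleTg. Clusters were named from marker genes, with the 9 members left out of the clustering, as epithelial-like (7087 DoubleTg and 6568 TripleTg cells), stromal-like (1026 and 254), endothelial-like (275 and 243) and immune-like (815 and 628). The immune-like cells of DoubleTg included 439 T and NK-like cells. TripleTg had no such class, since its cluster of 138 cells with T and NK markers stayed unnamed as mixed, so the immune-like groups differ in make-up. The epithelial-like cells comprised luminal-like (5015 and 4114), basal-like (1895 and 1242), seminal vesicle-like (127 and 591) and other (50 and 621) cells. The other epithelial cells were led by Atp6v1g3 and Foxi1 in DoubleTg and by Lypd2 and Defa5 in TripleTg, so they are unlike cells. Defining markers were present where the names require them: Krt5 stood at 1169.9 counts per 1000000 UMIs (CPM) in DoubleTg and 1067 CPM in TripleTg basal-like cells, Pecam1 at 1160.1 and 831 CPM in endothelial-like cells, and Ptprc at 319.9 and 245 CPM in macrophage-like cells. A few Schwann-like cells (39 and 25) were also named, and clusters of mixed or shallow cells stayed unnamed (1356 and 1774 cells). Of the 3 TripleTg basal-like clusters, one of 334 cells led by Reg3b, Reg1 and Reg3g carried basal markers at a share of 0.602, just past the limit of 0.6, and had only Krt15 of them among its leading genes. Without it the basal-like levels of TripleTg were 384 CPM for hHGFtg, 76.7 CPM for Hgf, 4.96 CPM for Hgfac and 278 CPM for Spint2, and shares of cells are given with it only. Another of 263 cells, led by Mt4 and Igfbp2, had a basal marker share of 0.653 and no basal marker among its 10 leading genes. It stayed in the class, with 331 CPM of hHGFtg, 40.2 CPM of hMETtg, 53.6 CPM of Met and 163 CPM of Spint1. Ratios whose 2-fold call or direction turned without the Reg3b cluster are given both ways.

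Both transgenes were detected in both libraries. In all kept cells hHGFtg had 97674 UMIs in DoubleTg and 19345 in TripleTg, and hMETtg had 101881 and 8815. The recombination of Ctnnb1 exon 3 could not be checked with tags from the 3' end of the transcript. Levels are given as CPM, the UMIs of a gene summed over the cells of a group per 1000000 UMIs of that group. Levels are not ranked between genes, and the ratios of UMIs between a mouse gene and its transgene given for some classes serve only to compare classes.

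Among the named classes the ligand hHGFtg was highest in fibroblast-like cells of DoubleTg and in basal-like cells of TripleTg. An unnamed TripleTg cluster of 499 shallow cells with fibroblast markers was higher still, at 922 CPM, and was left out of the named fibroblast-like cells (156 cells). In DoubleTg it stood at 1348 CPM (95% interval 1324 to 1371) in fibroblast-like cells, 712 CPM (702 to 722) in basal-like, 391 CPM (349 to 437) in mural-like and 314 CPM (312 to 317) in luminal-like cells. Seminal vesicle-like cells followed at 254 CPM, endothelial-like cells at 191 CPM, Schwann-like cells at 153 CPM (105 to 216), T and NK-like cells at 103 CPM, other epithelial cells at 98.0 CPM, dendritic-like cells at 59.8 CPM and macrophage-like cells at 16.2 CPM. In this order the intervals of Schwann-like cells overlapped those of endothelial-like and T and NK-like cells, and those of T and NK-like and other epithelial cells overlapped. In TripleTg the levels were 332 CPM (326 to 339) in basal-like, 93.4 CPM (89.8 to 97.1) in seminal vesicle-like, 79.9 CPM (67.8 to 93.5) in fibroblast-like, 55.4 CPM (42.8 to 70.4) in mural-like, 46.8 CPM (38.8 to 55.9) in endothelial-like and 19.0 CPM (18.3 to 19.8) in luminal-like cells, and Schwann-like cells had 3 UMIs. Without the 5% of cells in each library whose profile was most like a simulated doublet of 2 cells (the highest doublet score), endothelial-like cells had 18.9 CPM in DoubleTg and 6.19 CPM in TripleTg. Dendritic-like cells at 16.4 CPM and macrophage-like cells at 15.5 CPM had intervals that overlapped that of luminal-like cells, and other epithelial cells were lowest at 6.998 CPM. The intervals of seminal vesicle-like and fibroblast-like cells also overlapped, as did those of fibroblast-like and mural-like and of mural-like and endothelial-like cells.

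**Figure D1:**
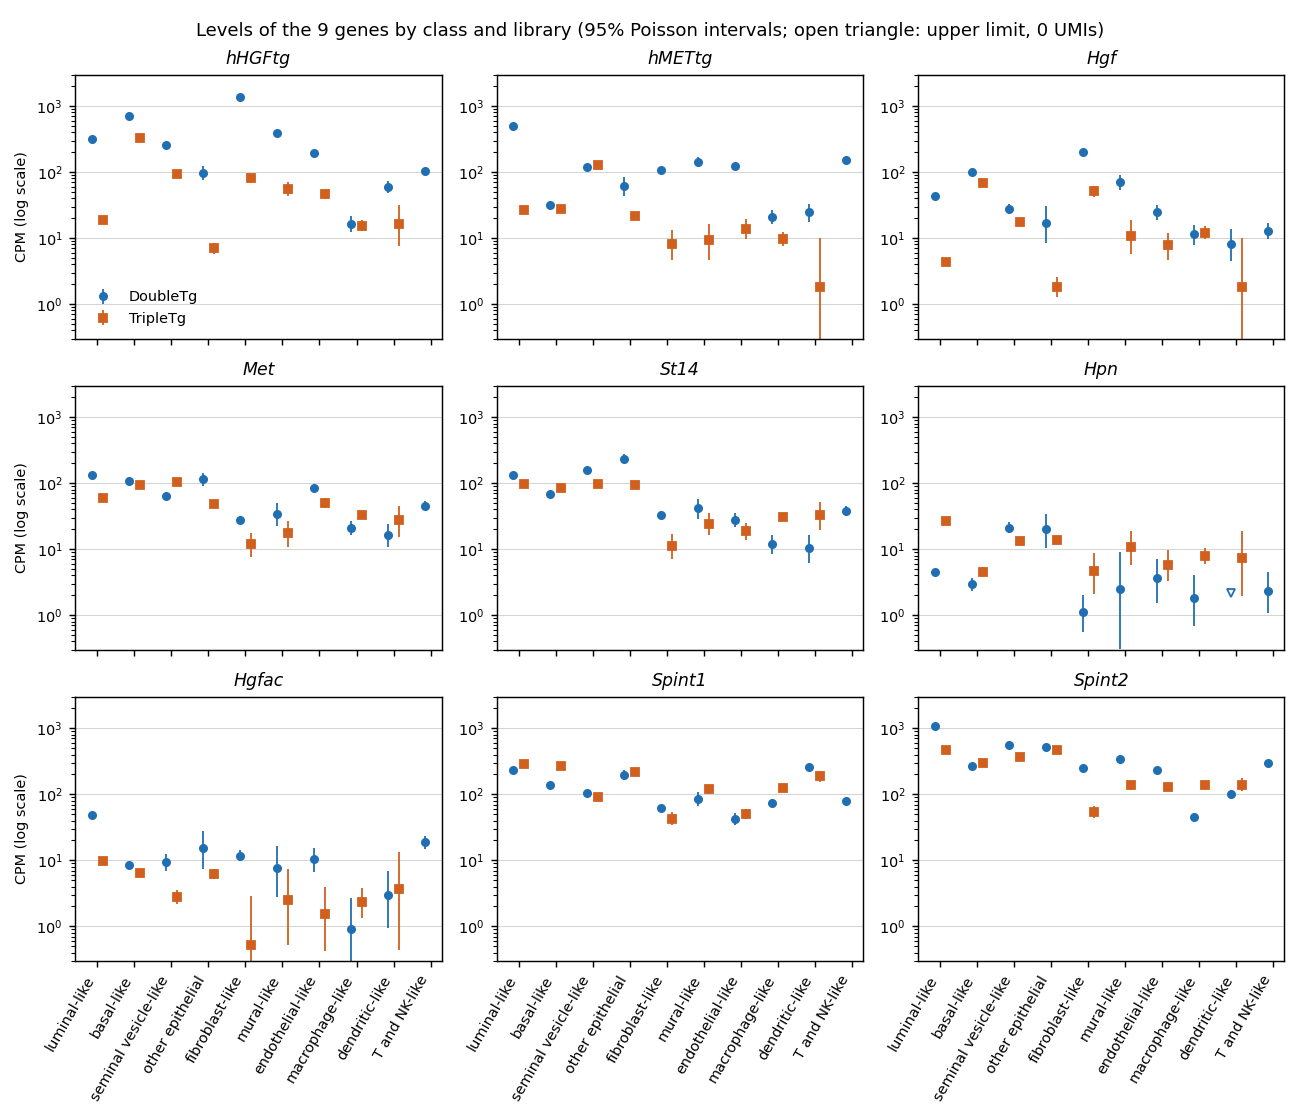
Level of each of the 9 genes (CPM, log axis) in each named cell class, with DoubleTg as blue circles, TripleTg as orange squares, bars for 95% Poisson intervals of the UMI count and an open triangle for the upper limit where no UMI was counted. The orange squares lie far under the blue circles for both transgenes in luminal-like cells and close to them for hMETtg in basal-like cells.

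Between libraries hHGFtg was 4.79-fold lower in TripleTg epithelial-like cells, at 74.9 CPM against 359 CPM (log2 ratio -2.26, 95% interval -2.28 to -2.23). The difference was not the same size in each epithelial class. It was 16.5-fold in luminal-like cells (log2 ratio -4.05), while basal-like cells differed by a log2 ratio of -1.10 (-1.13 to -1.06), or -0.89 (-0.93 to -0.86) without the Reg3b cluster, and seminal vesicle-like cells by -1.45. Endothelial-like cells differed by -2.03 (-2.34 to -1.74), or -1.61 (-2.63 to -0.66) without the cells of highest doublet score, and in macrophage-like cells the interval of the log2 ratio included 0 (-0.07, -0.56 to 0.43). In macrophage-like cells hHGFtg stood at 4.53% of the epithelial level in DoubleTg and 20.6% in TripleTg. The epithelial markers Epcam, Cdh1, Krt8, Krt18, Cldn4 and Cldn7 stood there at 3.97% to 7.67% and 27.8% to 34.6%. The part of epithelial RNA in this ratio was not tested.

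Of the 9 genes, 5 were more than 2-fold lower and 1 was more than 2-fold higher in TripleTg epithelial-like cells. Of the 9102 genes that reached 5 CPM in 1 or both libraries, 11.9% were more than 2-fold lower and 9.6% more than 2-fold higher. The median log2 ratio of these genes was -0.12, so a value near it marks no shift relative to them. With no level minimum the median of 21508 genes was 0.12. In luminal-like cells 6 of the 9 were lower and 1 was higher, against 12.1% and 12% of 9073 genes. In basal-like cells 1 was lower and 7 were within 2-fold, against 12% lower and 14.9% higher among all genes, and Hpn was under the minimum level. The lower one, hHGFtg, was within 2-fold without the Reg3b cluster. In seminal vesicle-like cells 2 were lower and 7 were within 2-fold, against 18.8% lower and 4.47% higher, and in endothelial-like cells 4 were lower and 5 were within 2-fold, against 7.9% lower and 13.6% higher. Of these 4, Hgf (-0.42, -2.16 to 1.33) and Hgfac were within 2-fold without the cells of highest doublet score, and hHGFtg and hMETtg were still lower, while St14 (1.37, 0.26 to 2.62) and Spint1 (1.48, 0.77 to 2.25) were more than 2-fold higher. On that basis St14 stood at 4.27% of the epithelial level in DoubleTg and 14.6% in TripleTg, and Spint1 at 5.63% and 13.5%. These values lay within the range of the epithelial markers there (4.10% to 7.01% and 10.4% to 15.9%), whose part was not tested. Mural-like cells (68 and 98 cells) had 5 lower and 1 higher, against 16.2% and 13.6%, with log2 ratios of -2.82 for hHGFtg and -3.95 for hMETtg. There hMETtg stood at 33.2% of the epithelial level in DoubleTg and 22.9% in TripleTg. The epithelial markers stood at 31.1% to 48.2% and 30.5% to 45.0%, and the part of epithelial RNA was not tested. Dendritic-like cells (96 and 47 cells) had 2 lower and 2 higher, against 4.69% and 22%, and St14 differed there by a log2 ratio of 1.64 (0.61 to 2.66). The 6 epithelial markers Epcam, Cdh1, Krt8, Krt18, Cldn4 and Cldn7 stood at 6.84% to 11.3% of their epithelial level in DoubleTg dendritic-like cells and 12.1% to 26.2% in TripleTg, and their part in this difference was not tested.

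**Figure D2:**
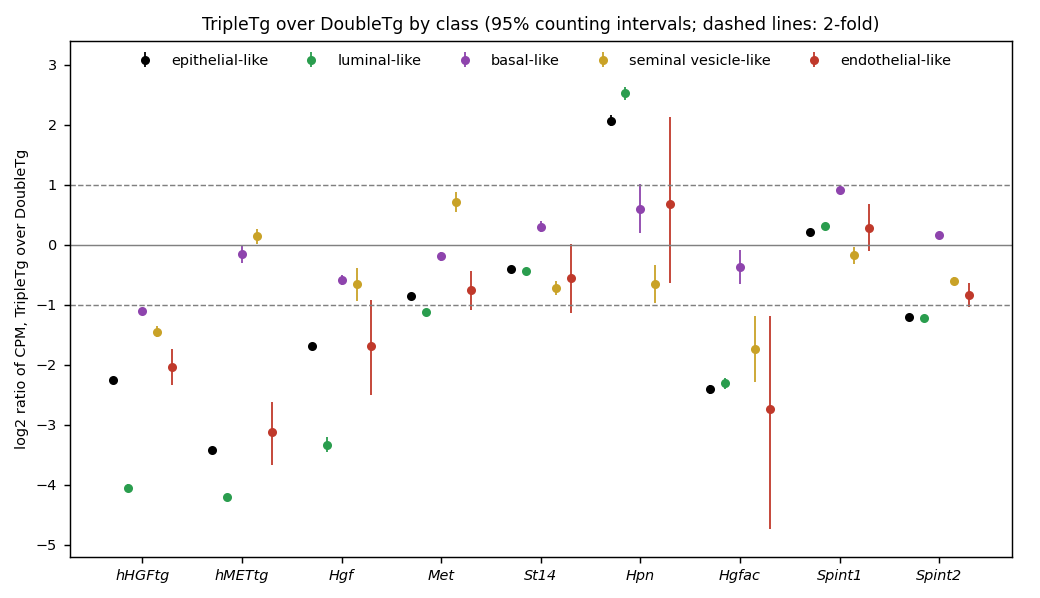
Log2 ratio of TripleTg to DoubleTg CPM for each gene in epithelial-like cells as a whole, in their basal-like, luminal-like and seminal vesicle-like classes and in endothelial-like cells, with 95% intervals for counting error and dashed lines at 2-fold. For the transgenes the luminal-like points lie near -4, and in the other direction Hpn reaches 2.52 in luminal-like cells.

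Within each library the transgenic ligand varied between clusters. The 10 luminal-like clusters of DoubleTg ranged from 52.4 CPM in a cluster led by Gsdmc2 and Lypd2 to 487 CPM in one led by Alb and Ppp1r1b. The 7 luminal-like clusters of TripleTg ranged from 7.02 to 27.1 CPM, so their ranges did not overlap. Of the fibroblast-like clusters in DoubleTg, one led by Wif1 and Spp1 stood at 1733 CPM and one led by Sult1e1, Lum and Actg2 at 666 CPM. The second of these carried smooth muscle genes, and fibroblast-like cells were therefore not compared between genotypes.

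The transgenic ligand was also unevenly held between cells of the same class. Among DoubleTg luminal-like cells with at least 20000 UMIs (4061 cells), 25.9% (24.5 to 27.3) had no hHGFtg UMI, 37.8% had 10 or more, and the highest cell had 417. The 10% of these cells with the most held 52.1% of the hHGFtg UMIs. In the 2819 such TripleTg luminal-like cells 69.6% had none, where an even share of the UMIs would have left 52.0% with none, and 0.745% had 10 or more. In 688 TripleTg basal-like cells only 14.4% had none and 35.0% had 10 or more.

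**Figure D3:**
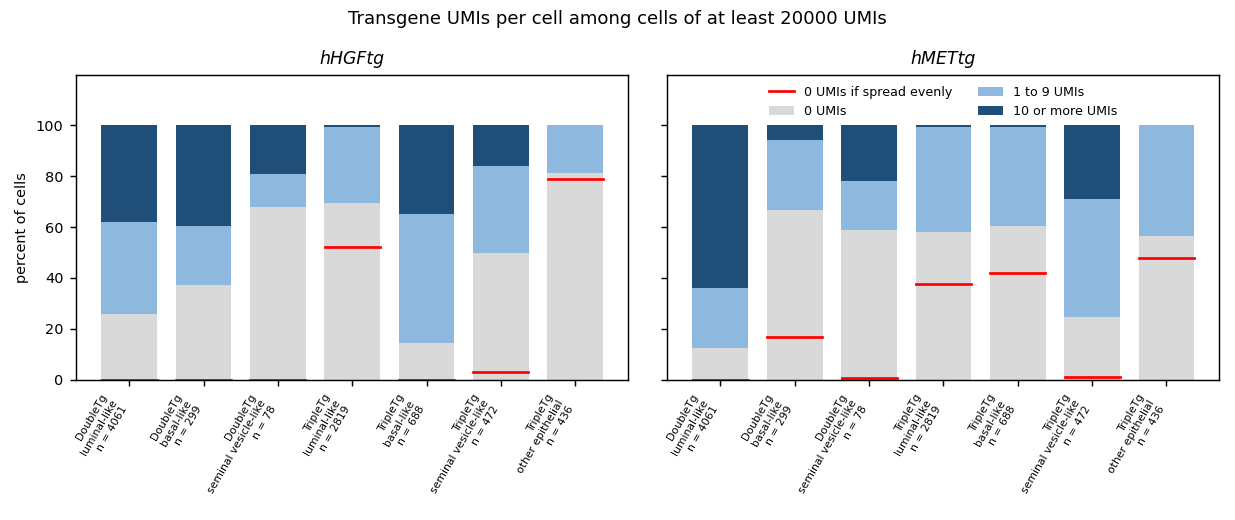
Percent of cells with 0, 1 to 9, or 10 or more UMIs of hHGFtg and hMETtg, among cells of each epithelial class with at least 20000 UMIs. The red line marks the share with 0 UMIs if the UMIs of the gene were spread evenly over the UMIs of the class, and the grey part of every bar reaches above it.

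Mouse Hgf (chr5:16553495-16620152, plus strand, GRCm38, protein coding) was highest in fibroblast-like cells among the named classes of DoubleTg. Its level was 199 CPM (191 to 208) in fibroblast-like, 101 CPM in basal-like, 70.6 CPM in mural-like, 43.5 CPM in luminal-like, 27.9 CPM in seminal vesicle-like, 24.7 CPM in endothelial-like and 11.3 CPM (7.98 to 15.6) in macrophage-like cells. In TripleTg it was 67.9 CPM in basal-like, 51.0 CPM (41.5 to 62.1) in fibroblast-like, 17.6 CPM in seminal vesicle-like, 12.1 CPM (9.68 to 15.02) in macrophage-like, 10.9 CPM in mural-like, 7.73 CPM in endothelial-like and 4.32 CPM in luminal-like cells. Epithelial-like cells differed by a log2 ratio of -1.69 (-1.75 to -1.63), luminal-like by -3.33 and macrophage-like by 0.10.

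In most classes the mouse gene followed the human transgene at a nearly fixed ratio. For every 100 UMIs of hHGFtg there were 13.9 UMIs of Hgf (13.6 to 14.2) in DoubleTg epithelial-like cells. The ratio was 13.8 in luminal-like, 14.2 in basal-like, 14.8 in fibroblast-like, 10.95 in seminal vesicle-like, 12.9 in endothelial-like and 12.6 in T and NK-like cells. In TripleTg it was 20.6 (19.8 to 21.4) in epithelial-like cells and lay between 16.5 and 22.8 in basal-like, luminal-like, seminal vesicle-like, mural-like and endothelial-like cells. Macrophage-like cells stood apart in both libraries, with 69.8 (44.6 to 108) in DoubleTg, from 37 Hgf and 53 hHGFtg UMIs, and 78.5 (58.3 to 105) in TripleTg. TripleTg fibroblast-like cells also stood apart, at 63.9 (49.1 to 82.7), and the highest ratios were those of shallow unnamed clusters led by Gm26917, at 87.1 (70.8 to 107) in DoubleTg and 168 (114 to 250.1) in TripleTg. Between the macrophage-like clusters of TripleTg the ratio was 125 in one with Hgf at 18.0 CPM and 35.7 in one with Hgf at 5.93 CPM.

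**Figure D4:**
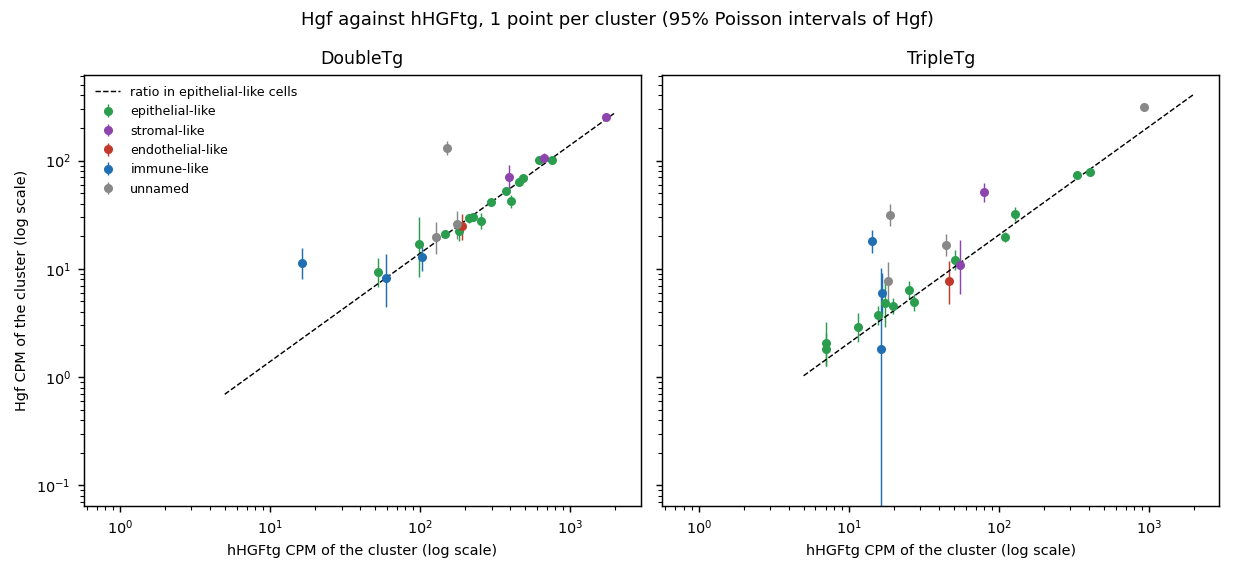
Hgf level against hHGFtg level (both CPM, log axes), with 1 point for each cluster and a panel for each library. The dashed line is the ratio in epithelial-like cells of that library. Points are coloured by broad group, so macrophage-like clusters, which lie above the line in both panels, share the immune-like colour with clusters under it.

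The same relation held between cells of a class. Among epithelial-like DoubleTg cells with at least 20000 UMIs, Hgf stood at 2.17 CPM (1.78 to 2.63) in the 1216 cells with no hHGFtg UMI, 13.9 CPM in the 1555 cells with 1 to 9 and 94.3 CPM in the 1671 cells with 10 or more. In TripleTg luminal-like cells the corresponding levels were 2.08, 5.83 and 65.2 CPM. Human HGF and mouse Hgf are near copies, and whether reads of the transgene were counted as mouse Hgf was not tested, so each Hgf level given here is uncertain wherever hHGFtg is present.

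The receptor transgene hMETtg was highest in luminal-like cells of DoubleTg and in seminal vesicle-like cells of TripleTg. In DoubleTg it stood at 493 CPM (490.3 to 497) in luminal-like cells, and next came T and NK-like cells at 155 CPM, mural-like at 143 CPM, endothelial-like at 121 CPM, seminal vesicle-like at 118 CPM, fibroblast-like at 108 CPM, other epithelial at 61.3 CPM and basal-like at 31.2 CPM (29.2 to 33.4). From T and NK-like to fibroblast-like cells each neighbour in this order had an overlapping interval, but endothelial-like cells had 21.8 CPM without the cells of highest doublet score. Relative to epithelium hMETtg stood at 36.0% in T and NK-like, 33.2% in mural-like and 25.2% in fibroblast-like cells, each within the range of the 6 epithelial markers there (27.6% to 38.8%, 31.1% to 48.2% and 23.0% to 26.2%). The part of epithelial RNA in these levels was not tested. In TripleTg seminal vesicle-like cells had 130.1 CPM (126 to 134), basal-like 27.9 CPM (26.1 to 29.9), luminal-like 26.9 CPM (26.0 to 27.8), other epithelial 21.9 CPM, endothelial-like 13.9 CPM, macrophage-like 9.82 CPM, mural-like 9.23 CPM and fibroblast-like 8.24 CPM. Basal-like and luminal-like cells there had overlapping intervals (log2 ratio of luminal to basal -0.05, -0.16 to 0.06), though not without the Reg3b cluster (-0.30, -0.41 to -0.19), whereas in DoubleTg luminal-like cells were 15.8-fold higher than basal-like cells.

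Between libraries hMETtg was 10.7-fold lower in TripleTg epithelial-like cells (40.3 against 429.8 CPM, log2 ratio -3.42, -3.45 to -3.38) and 18.4-fold lower in luminal-like cells. Basal-like cells differed by a log2 ratio of -0.16 (-0.30 to -0.02), or 0.08 (-0.06 to 0.23) without the Reg3b cluster, and seminal vesicle-like cells by 0.14, a mean over TripleTg clusters at 178 and 7.38 CPM. The mouse probasin gene Pbsn is given because the Cre transgene is driven by a probasin promoter. Its own level does not measure the Cre. Pbsn stood at 1644 CPM in DoubleTg luminal-like cells and 8.04 CPM in TripleTg luminal-like cells, and at 103 and 0.624 CPM in basal-like cells. Its part in the hMETtg difference was not tested.

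The receptor transgene divided luminal-like cells of DoubleTg into high and low clusters. A cluster led by Srpx and Prr9 reached 802 CPM and one led by Msln, Aldh1a3 and Psca 749 CPM, while the cluster led by Scgb2b27 and Sbp had 138 CPM and the cluster led by Gsdmc2 and Lypd2 36.5 CPM. TripleTg luminal-like clusters lay between 15.6 and 40.9 CPM, and in seminal vesicle-like cells a cluster led by Crisp1 and Sprr2f stood at 178 CPM and one led by Sva and Svs1 at 7.38 CPM. In luminal-like cells with at least 20000 UMIs, 12.6% of DoubleTg and 58.2% of TripleTg cells had no hMETtg UMI, and 63.9% of the DoubleTg cells had 10 or more.

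Mouse Met (chr6:17463800-17573980, plus strand, protein coding), the endogenous receptor gene, was spread more evenly than its transgene. In DoubleTg its level was 132 CPM (130.1 to 134) in luminal-like, 115 CPM in other epithelial, 106 CPM (102 to 110.0) in basal-like, 85.0 CPM (73.4 to 98.1) in endothelial-like and 63.8 CPM (57.1 to 71.0) in seminal vesicle-like cells. In TripleTg it was 105 CPM (101 to 109) in seminal vesicle-like, 93.3 CPM (89.9 to 96.8) in basal-like, 60.6 CPM (59.2 to 61.9) in luminal-like and 50.2 CPM (42.0 to 59.6) in endothelial-like cells. The intervals of other epithelial cells overlapped those of luminal-like and basal-like cells in DoubleTg, and those of luminal-like and endothelial-like cells overlapped in TripleTg. Fibroblast-like cells were low in both, at 27.6 and 11.9 CPM. The genotypes differed by a log2 ratio of -0.86 (-0.89 to -0.83) in epithelial-like, -1.12 in luminal-like, -0.19 in basal-like, 0.71 (0.55 to 0.88) in seminal vesicle-like and -0.76 (-1.09 to -0.43) in endothelial-like cells. The seminal vesicle-like clusters of TripleTg lay on either side of the DoubleTg level, at 139 CPM of Met in the Crisp1 cluster and 17.9 CPM in the Sva cluster.

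Endothelial-like cells kept a Met level close to that of epithelium. It was 66.8% of the epithelial level in DoubleTg and 71.5% in TripleTg, while the 6 epithelial markers lay between 18.6% and 26.3% and between 16.7% and 23.0% of theirs. Without the cells of highest doublet score Met was at 49.5% and 65.9%, and the markers at 4.10% to 7.01% and 10.4% to 15.9%. After each cell was thinned to 5000 UMIs, 22.5% (16.3 to 29.8) of DoubleTg and 18.6% (12.9 to 25.5) of TripleTg endothelial-like cells had a Met UMI, against 7.34% and 3.42% of fibroblast-like cells. Median depth before thinning was 6136 and 6999 UMIs in endothelial-like cells and 8015 and 8818 in stromal-like cells. In stromal-like cells Met stood at 22.1% and 19.99% of the epithelial level, within or just under the ranges of the epithelial markers there (23.7% to 27.9% in DoubleTg and 17.8% to 25.1% in TripleTg).

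In luminal-like cells the mouse receptor was more often seen where the human one was seen. Among thinned DoubleTg luminal-like cells, Met was detected in 54.2% (52.5 to 55.9) of 3306 cells with an hMETtg UMI and in 24.9% (22.8 to 27.2) of 1500 cells without. In TripleTg luminal-like cells the shares were 32.1% (27.4 to 36.9) of 390 and 24.8% of 3608 cells, and in TripleTg seminal vesicle-like cells 52.1% of 219 and 29.3% of 317. Part of the last gap lay between clusters, since within the Crisp1 cluster the shares were 53.0% (46.1 to 59.8) of 215 and 40.6% (33.7 to 47.8) of 197, and in the Sva cluster 0 of 4 and 10.8% of 120. Among the other members in DoubleTg luminal-like cells the gap was smaller, with hHGFtg in 48.9% against 37.8%, St14 in 49.97% against 41.3% and Hgfac in 22.1% against 11.6%, and Hpn was detected in 2.18% (1.71 to 2.73) of cells with hMETtg against 2.93% (2.14 to 3.92) of those without. The hHGFtg gap was not found in every cluster. It was absent in those led by Srpx (32.2% against 40.2%), Pcp4 (56.25% against 56.8%) and Ube2c (44.3% against 44.4%). In the other luminal-like clusters hHGFtg was more often seen with hMETtg. Among deeper cells, with at least 20000 UMIs, Met in DoubleTg luminal-like cells stood at 38.4 CPM where hMETtg had no UMI (511 cells), 58.0 CPM where it had 1 to 9 (956 cells) and 169 CPM where it had 10 or more (2594 cells). Clusters varied too, from 35.8 to 199.8 CPM of Met over the DoubleTg luminal-like clusters and from 42.3 to 74.4 CPM over those of TripleTg. Per 100 hMETtg UMIs there were 26.7 Met UMIs in DoubleTg luminal-like, 29.5 in T and NK-like and 340.3 in basal-like cells, and 225 in TripleTg luminal-like cells. Human MET and mouse Met are also near copies, and whether they share reads was not tested.

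Matriptase, St14 (chr9:31089402-31131853, minus strand, protein coding), had a level of 124 CPM (123 to 126) in the DoubleTg epithelium, and 94.1 CPM (92.8 to 95.4) in that of TripleTg, a log2 ratio of -0.40 (-0.43 to -0.38). In DoubleTg its level was 234 CPM (199 to 274) in the 50 other epithelial cells, a cluster led by Foxi1 and Atp6v1g3, 161 CPM in seminal vesicle-like, 131 CPM in luminal-like and 67.6 CPM in basal-like cells. The TripleTg classes lay closer together, at 97.6 CPM in seminal vesicle-like, 96.0 CPM in luminal-like, 93.6 CPM in other epithelial and 83.2 CPM in basal-like cells, and of these only the basal-like interval overlapped none of the others. The other epithelial cells of TripleTg, led by Lypd2 and Defa5, are not the Foxi1 cells of DoubleTg. The order of luminal-like above basal-like cells was thus found in both libraries, with a larger gap in DoubleTg (log2 ratio 0.95). Outside the epithelium St14 stayed at 27.4% of the epithelial level in stromal-like, 22.4% in endothelial-like and 18.6% in immune-like cells of DoubleTg, and in each of these groups this lay within the range of the 6 epithelial markers.

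Hepsin, Hpn (chr7:31098725-31115290, minus strand, protein coding), was the one member more than 2-fold higher in TripleTg epithelial-like cells. It had 1155 UMIs in DoubleTg and 4416 in TripleTg kept cells. Epithelial-like cells had 4.82 CPM (4.54 to 5.11) of it in the DoubleTg library, and 20.2 CPM (19.6 to 20.8) in the other, 4.19-fold higher (log2 ratio 2.07, 1.97 to 2.17). In luminal-like cells it was 4.59 CPM (4.29 to 4.89) and 26.3 CPM (25.4 to 27.2), which is 5.74-fold higher. After thinning, 2.41% of DoubleTg and 13.0% of TripleTg luminal-like cells had an Hpn UMI. Seminal vesicle-like cells had the reverse order, 21.2 CPM (17.4 to 25.5) in DoubleTg and 13.4 CPM (12.1 to 14.9) in TripleTg, and basal-like cells were low in both, at 2.95 and 4.46 CPM. The luminal-like clusters of TripleTg ranged from 7.10 CPM in one led by Krt73 and Calm4 to 46.8 CPM in one led by Rnase1, Wfdc18 and Car8, and those of DoubleTg from 0.346 to 11.9 CPM. The Krt73 cluster also had Cnfn, Tchh and Lce3f, genes of cornifying cells, among its leading genes. Its place in the luminal-like class rests on the naming rule. DoubleTg dendritic-like cells had no Hpn UMI, which allows a level of up to 1.76 CPM (3 UMIs).

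The secreted activator gene Hgfac (chr5:35041509-35048461, plus strand, protein coding) was mainly found in luminal-like cells of DoubleTg. It stood at 48.2 CPM (47.2 to 49.1) in luminal-like, 11.7 CPM in fibroblast-like, 10.3 CPM in endothelial-like, 9.35 CPM in seminal vesicle-like and 8.36 CPM in basal-like cells. In stromal-like (26.9%) and endothelial-like cells (24.3% of the epithelial level) it lay within the epithelial markers there (23.7% to 27.9% and 18.6% to 26.3%). Without the cells of highest doublet score Hgfac was at 4.34% in stromal-like cells and at 1.18 CPM in endothelial-like cells. In TripleTg it was 9.70 CPM (9.17 to 10.3) in luminal-like, 6.50 CPM in basal-like, 2.79 CPM in seminal vesicle-like and 1.55 CPM in endothelial-like cells. Epithelial-like cells were 5.32-fold lower in TripleTg (log2 ratio -2.41, -2.49 to -2.34) and luminal-like cells 4.96-fold lower. The share of thinned luminal-like cells with an Hgfac UMI was 18.8% in DoubleTg and 4.08% in TripleTg. Its DoubleTg luminal-like clusters were split, from 2.95 CPM in the Scgb2b27 and Sbp cluster to 74.2 CPM in one led by Pcp4 and Msmb and 76.5 CPM in a cluster led by the cycling gene Ube2c.

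The inhibitors differed from each other between genotypes. Spint2 (chr7:29256323-29281912, minus strand, protein coding), which encodes HAI-2, had an epithelial level of 977 CPM (973 to 981) in DoubleTg, and 426 CPM (423 to 429) in TripleTg, 2.29-fold lower (log2 ratio -1.20, -1.21 to -1.19). Luminal-like cells had 1086 and 464 CPM, seminal vesicle-like cells 558 and 368 CPM, and basal-like cells 265 (259 to 271) and 296 (290.2 to 302) CPM, so that the luminal-like level was 4.10-fold the basal-like level in DoubleTg, while in TripleTg the log2 ratio was 0.65. After thinning Spint2 was detected in 97.7% of DoubleTg and 88.1% of TripleTg luminal-like cells. In DoubleTg the cluster led by Srpx and Prr9 was highest, at 1499 CPM, and that led by Scgb2b27 and Sbp lowest of the luminal-like clusters, at 496 CPM.

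Spint1 (chr2:119237362-119249527, plus strand, protein coding), which encodes HAI-1, had an epithelial level of 219.7 CPM (218 to 222) in DoubleTg, and 254 CPM (252 to 257) in TripleTg, a log2 ratio of 0.21 (0.19 to 0.23) beside the median of -0.12. Basal-like cells differed most among the epithelial classes, with 139.5 CPM (135 to 144) and 264 CPM (258 to 269.7), a log2 ratio of 0.92 (0.86 to 0.98). Luminal-like cells had 234 and 291 CPM, and seminal vesicle-like cells were lower at 104 and 91.6 CPM. After thinning, 37.5% of DoubleTg and 63.3% of TripleTg basal-like cells had a Spint1 UMI. Of the members other than Hgf, Spint1 had the highest level in immune-like cells relative to epithelium, at 51.0% of the epithelial level in DoubleTg and 51.3% in TripleTg, where the 6 epithelial markers lay between 15.6% and 22.0% and between 26.7% and 33.1%. Without the cells of highest doublet score it stood at 43.0% and 44.9%. By class, with all cells counted, Spint1 was at 33.9% in macrophage-like and 35.4% in T and NK-like cells of DoubleTg. The epithelial markers lay there between 3.97% and 7.67% and between 27.6% and 38.8%. In TripleTg macrophage-like cells it was at 49.5%, beside markers at 27.8% to 34.6%. Dendritic-like cells carried 261 CPM (238 to 287) and 186 CPM (152 to 226), which is 119% and 73.1% of the epithelial level beside epithelial markers at 6.84% to 11.3% and 12.1% to 26.2%. After thinning, 61.7% and 61.9% of dendritic-like cells had a Spint1 UMI.

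Outside the epithelium 18 of the 42 values of 7 members in 6 groups (stromal-like, endothelial-like and immune-like cells of each library) lay within the range of the 6 epithelial markers, 20 lay above it and 4 under it. In DoubleTg immune-like cells hHGFtg stood at 17.5%, hMETtg at 18.6%, St14 at 18.6% and Spint2 at 16.8% of the epithelial level, all within 15.6% to 22.0%. Without called doublets hHGFtg and hMETtg were at 8.81% and 8.88% there and the markers at 7.35% to 13.4%, and without the cells of highest doublet score at 7.02% and 5.84% and the markers at 4.39% to 10.9%. In TripleTg immune-like cells hHGFtg (20.7%) and hMETtg (22.9%) were under the markers' 26.7% to 33.1%, and without the cells of highest doublet score hHGFtg (20.9%) was within 18.7% to 23.1% and hMETtg (16.1%) under it.

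In DoubleTg stromal-like cells hMETtg at 25.8% and Spint2 at 26.3% lay within the markers' range, while hHGFtg was at 356%. In TripleTg stromal-like cells hHGFtg was at 94.2% and hMETtg at 21.4%, with markers between 17.8% and 25.1%. In endothelial-like cells hHGFtg stood at 53.3% and 62.4% and hMETtg at 28.3% and 34.5%, above the markers in both libraries, but without the cells of highest doublet score hHGFtg was at 5.26% in DoubleTg, within the markers, and at 8.80% in TripleTg, under them. On the same basis hMETtg was at 5.06% in DoubleTg, also within the markers, and at 16.7% in TripleTg, above their 10.4% to 15.9%. Hpn lay above the markers in 5 of the 6 groups, but on few UMIs. It had 8 UMIs in DoubleTg endothelial-like cells (74.7%), 15 in DoubleTg immune-like (35.3%), 22 in TripleTg stromal-like (34.8%), 15 in TripleTg endothelial-like (28.7%) and 59 in TripleTg immune-like cells (39.1%). The lower bound of the level reached into the range of the markers in 4 of these groups, with DoubleTg endothelial-like cells (1.55 to 7.09 CPM beside 4.82 CPM in the epithelium) as the exception. In macrophage-like cells the epithelial markers themselves stood at 3.97% to 7.67% in DoubleTg and at 27.8% to 34.6% in TripleTg. St14, Hpn and Spint2 were higher there in TripleTg by log2 ratios of 1.37, 2.11 and 1.63, hMETtg was lower by -1.11 (-1.61 to -0.60), and the part of epithelial RNA in these differences was not tested. Among all genes in macrophage-like cells 19.2% were more than 2-fold higher and 5.67% lower in TripleTg.

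**Figure D5:**
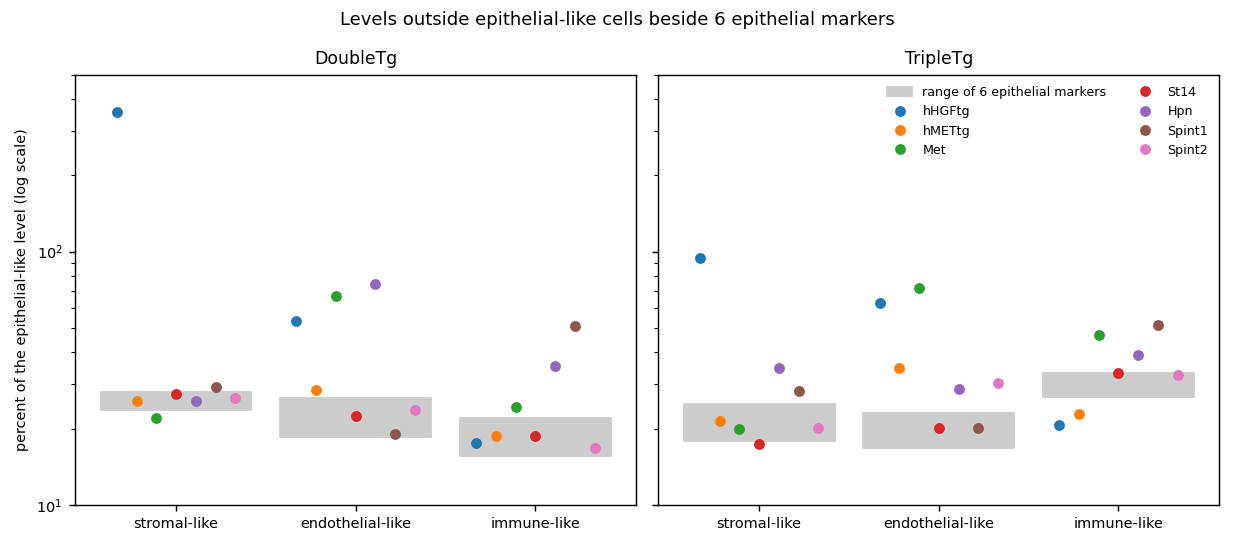
Level of 7 members in stromal-like, endothelial-like and immune-like cells as a percent of the epithelial-like level of the same library (log axis), with the grey box spanning the 6 epithelial markers. Met in endothelial-like cells and Spint1 in immune-like cells lie above the box in both libraries, and hHGFtg lies above it in stromal-like and endothelial-like cells, in the latter only with the cells of highest doublet score counted.

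Within each library the members were set against the same 2-fold line between classes. In DoubleTg luminal-like over basal-like cells 3 members were higher (hMETtg, Hgfac and Spint2) and 2 lower (hHGFtg and Hgf), where 20% and 18.4% of all genes were. In TripleTg Hpn was higher, hHGFtg and Hgf were lower and 6 members were within 2-fold, where 7.46% of all genes were higher and 10.3% lower. There hHGFtg was 17.5-fold and Hgf 15.7-fold lower in luminal-like than in basal-like cells, or 20.2-fold and 17.7-fold without the Reg3b cluster.

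The ligand genes were the ones on the stromal side. In DoubleTg fibroblast-like over epithelial-like cells hHGFtg (3.76-fold) and Hgf (4.002-fold) were higher and 6 members lower, where 21.8% and 12.9% of all genes were. In TripleTg Hgf was 3.31-fold higher, hHGFtg was within 2-fold (log2 ratio 0.09, -0.14 to 0.32) and 7 members were lower, where 28.5% of all genes were higher and 15% lower. With the shallow unnamed cluster counted as fibroblast-like, hHGFtg was 8.43-fold (log2 ratio 3.08) and Hgf 14.5-fold (3.86) higher, and 5 members were lower. With all stromal-like cells as the base, 6 members were higher and 2 lower in DoubleTg epithelial-like cells, against 12.2% and 22.3% of all genes, and 7 were higher and 1 lower in TripleTg, against 11.4% and 27.3%.

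Endothelial-like and immune-like cells were on the low side for most members. Over endothelial-like cells 6 members were higher in the epithelium of each library, against 18.5% of all genes higher and 26.5% lower in DoubleTg and 12.1% and 28.4% in TripleTg, and Met was within 2-fold in both (log2 ratios 0.58, 0.38 to 0.80, and 0.48, 0.23 to 0.74). Without the cells of highest doublet score Met was just past 2-fold in DoubleTg, with an endothelial-like level 49.5% of the epithelial one, and hHGFtg was past 2-fold in both libraries (5.26% and 8.80%). Over immune-like cells 7 members were higher in each, against 23.2% higher and 21.1% lower in DoubleTg and 15.5% and 18.7% in TripleTg, and Spint1 was within 2-fold in both (0.97 and 0.96), a call that ended in both without the cells of highest doublet score, where the immune-like level was 43.0% and 44.9% of the epithelial one.

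Ligand and receptor met in the same cells more often in the DoubleTg than in the TripleTg epithelium. Of thinned epithelial-like cells, 45.4% in DoubleTg and 19.0% in TripleTg had a UMI of hHGFtg or Hgf, 66.3% and 35.3% had one of hMETtg or Met, and 32.7% (31.6 to 33.9) and 8.30% had both. The share with both was 38.8% and 3.30% in luminal-like cells, 17.9% and 23.6% in basal-like cells and 11.2% and 20.3% in seminal vesicle-like cells. In basal-like cells the shares run against the CPM of hHGFtg, and no order was read from them. An activator UMI without an inhibitor UMI was found in 1.54% of DoubleTg and 1.86% of TripleTg epithelial-like cells, since inhibitor UMIs were found in 93.7% and 94.0% of them.

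The start-site sequences of Hpn, Hgfac and Spint2 are shown because these are the protease and inhibitor genes that differed more than 2-fold between the genotypes in epithelial-like cells. Each is the 250 bases before a RefSeq start on GRCm38.p6, written 5′ to 3′ on the strand of the gene, with E-box letters CAGGTG and their reverse complement CACCTG in capitals.
Hpn (chr7:31115327-31115576, minus strand): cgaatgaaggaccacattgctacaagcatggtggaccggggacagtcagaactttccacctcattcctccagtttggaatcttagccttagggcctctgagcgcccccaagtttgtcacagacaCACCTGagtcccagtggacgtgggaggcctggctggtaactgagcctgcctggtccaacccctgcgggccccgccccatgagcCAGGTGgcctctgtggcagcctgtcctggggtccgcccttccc
Hgfac (chr5:35041259-35041508, plus strand): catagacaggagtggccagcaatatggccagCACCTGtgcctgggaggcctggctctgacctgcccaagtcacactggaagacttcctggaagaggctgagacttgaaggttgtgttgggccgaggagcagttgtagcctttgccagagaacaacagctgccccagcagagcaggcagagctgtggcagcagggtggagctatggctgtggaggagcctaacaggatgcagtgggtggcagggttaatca
Spint2 (chr7:29281978-29282227, minus strand): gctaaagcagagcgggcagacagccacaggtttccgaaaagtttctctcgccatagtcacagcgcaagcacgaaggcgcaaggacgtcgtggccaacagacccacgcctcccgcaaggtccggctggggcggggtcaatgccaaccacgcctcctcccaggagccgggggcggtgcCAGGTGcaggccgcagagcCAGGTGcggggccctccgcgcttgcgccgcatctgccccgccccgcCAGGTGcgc
The capitals begin 126 and 43 bases before the start in Hpn, 219 in Hgfac, and 74, 55 and 9 in Spint2. A second RefSeq start of Hpn (window chr7:31110998-31111247) had no such letters. Over 8 windows of 6 mouse members, 3 windows held this E-box on either strand, and 17.2% of 32851 mouse windows of the same length did. The letters were chosen after these sequences were seen, so nothing is read from that count. These letters are one form of the general E-box CANNTG. The TCF/LEF letters CTTTGAA, also searched with each of the endings AT, TA and TT after CTTTG and on both strands, were in 0 of the 8 windows and in 14.8% of all windows. A match describes letters only.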

How the data were processed

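Single-cell suspensions of diseased prostate tissue were profiled with 10x Genomics 3' v3 chemistry. The authors counted UMIs with Cell Ranger 6.0.2, per the submitters' processing notes, on mm10 to which the hHGFtg and hMETtg sequences were added, and deposited raw UMI counts for each gene and cell. The stated limits of more than 200 and fewer than 7000 genes and under 15% mitochondrial UMIs were applied again. They removed 1474 DoubleTg cells and no TripleTg cells. They left more DoubleTg cells than the study states, so the cell set and the rebuilt class names may differ from the study's. Kept cells held 256880958 UMIs in DoubleTg and 229655259 in TripleTg. The libraries shared 30 cell barcodes.

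Each library was clustered alone (scanpy 1.11.5, 2000 variable genes without the 9 members, 20 components, 15 neighbours, Leiden resolution 1). Names came from marker lists. The thresholds for naming were set after the clusters were seen. Members and lists were chosen with earlier results of these data known. UMIs were summed per library and class, as CPM with exact Poisson intervals. Ratios had conditional binomial intervals, and shares had Clopper-Pearson intervals. Detection was compared after thinning to 5000 UMIs, which left out 2171 DoubleTg and 1699 TripleTg cells. Genes of at least 5 CPM in either group entered counts past 2-fold. Pathway genes were named as the 4 highest epithelial levels in a list and those past 2-fold, and genes with a like pattern as the 3 highest correlations. The interval script was tested on simulated data. Scrublet called 273 doublets (2.58%) in DoubleTg and 0 in TripleTg, where it did not work, and no cell was removed as a doublet. Alternatives were thinned counts, TMM factors (edgeR 4.0.16), all cells, luminal-like cells alone, Leiden resolution 2, no level minimum and doublet removal. The 3' tags do not cover the 5' windows shown, and the E-box was chosen after the sequences were seen. Positions are from GENCODE M21 and windows from RefSeq. Some results named by these rules are not reported here.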

Additional observations from a re-analysis of the deposited data

How the results depend on the processing

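No paired analysis was possible because each genotype had 1 library. Of 79 alternative values for 14 log2 ratios and shares, none changed direction and 34 moved beyond their counting interval. For TripleTg over DoubleTg epithelial-like cells, in the order hHGFtg, hMETtg, Met, St14, Hpn, Spint1 and Spint2, cells thinned to 5000 UMIs gave -2.23, -3.45, -0.90, -0.36, 2.23, 0.26 and -1.03, and luminal-like cells alone gave -4.05, -4.20, -1.12, -0.45, 2.52, 0.32 and -1.23. TMM factors gave -2.23 for hHGFtg, 0.24 for Spint1 and -1.17 for Spint2. For hHGFtg all cells gave -2.21, and leaving out the 5% of cells with the highest doublet score gave -2.35. Doublet scores were used in this way after the data were seen.

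For epithelial-like over immune-like cells in DoubleTg, hHGFtg (2.52) became 3.68 after thinning, 3.50 without called doublets and 3.83 without the top 5%, and hMETtg (2.43) became 3.11, 3.49 and 4.10. In TripleTg hHGFtg (2.27) became 2.74 after thinning and hMETtg (2.12) 2.63 without the top 5%. For fibroblast-like over epithelial-like cells, Hgf in DoubleTg (2.001) became 1.88 after thinning, 2.15 without called doublets, 2.59 at Leiden resolution 2 and 2.23 without the top 5%. In TripleTg (1.73) it became 2.13 after thinning, 2.20 at resolution 2 and 3.86 with a shallow unnamed cluster counted as fibroblast-like. The cause of these shifts was not tested. The share of genes past 2-fold between epithelial-like cells (21.5%) was 31.7% with no level minimum, where 56.8% of them were higher against 44.6%, and 21.4% with TMM factors. Removal of called doublets was not run for the genotype ratios or for TripleTg, where none were called. Leaving out the 30 shared barcodes moved no ratio by more than 0.0066. Depth limits the small classes: in TripleTg fibroblast-like cells Hgfac rests on 1 UMI and Hgf on 99. Leaving out a weakly marked TripleTg basal-like cluster, counting the shallow cluster for every member and leaving out high doublet scores outside the epithelium were chosen after the data were seen. Of the endothelial-like genotype ratios, St14, Spint2 and Hgfac changed direction without the cells of highest doublet score (-0.56 to 1.37, -0.84 to 0.69 and -2.74 to 0.17). The epithelial markers there then stood at 4.10% to 7.01% of their epithelial level in DoubleTg and 10.4% to 15.9% in TripleTg. Their part was not tested.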

Other observations

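Other genes of the HGF and MET pathway were read in epithelial-like cells from 4 lists, beside a median log2 ratio of -0.12 for all genes (TripleTg over DoubleTg), with 11.9% of all genes more than 2-fold lower and 9.6% higher. Among further pro-HGF activators, Plat, the tissue plasminogen activator, stood at 279.8 CPM in DoubleTg and 854 CPM in TripleTg (log2 ratio 1.61), and Plau, the urokinase, at 15.1 and 51.3 CPM (1.76). The serine proteases Tmprss2 and Prss8 had log2 ratios of 0.55 and -0.82.

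Of 12 co-receptors and partners of MET, 9 were compared, and Erbb3, a receptor that pairs with other ErbB family members, was higher at 28.5 and 58.0 CPM (1.02). Of the most abundant in this list, Cd44, Itga6 and Sdc1 had log2 ratios of 0.61, 0.51 and 0.47, and Sdc4 of -0.82. Of 16 adaptors and kinases, 14 were compared and none was past 2-fold, with a median of -0.26. Of 12 negative regulators, 11 were compared and 2 were lower, Spry2, an inhibitor of receptor tyrosine kinase signalling, at 47.1 and 14.4 CPM (-1.71), and the ubiquitin ligase gene Cblb (-1.01). Dusp6 had -0.82 and Errfi1 -0.53. Other regulators in the list went the other way, and the 11 had a median of -0.21 and a highest value of 0.47.

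A cluster of 499 shallow TripleTg cells, with a median of 5035 UMIs and led by Apod, Myoc, Matn2 and Lama2, stayed unnamed. It held hHGFtg at 922 CPM and Hgf at 315 CPM, above every named class of that library. For every 100 hHGFtg UMIs it had 34.1 Hgf UMIs (31.9 to 36.5).

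Over 21 named classes of both libraries and 6419 genes, patterns among the 3 most like each member were, by Pearson r of log2(CPM + 1), Hgf (0.854), Isg20 (0.793) and Aen (0.778) for hHGFtg, Slc7a4 (0.917), Agr2 (0.873) and Gm5615 (0.867) for hMETtg, and Kcnk1 (0.849) and Cdh1 (0.841) for Met. For St14 they were Crb3 (0.962), Ocln (0.959) and Tuft1 (0.947), for Spint2 Mboat1 (0.943), Ap1m2 (0.943) and Cldn3 (0.931), and for Spint1 Rps26 (0.878), Rab11fip1 (0.867) and Rpl32 (0.829). Classes of one library share its depth and free RNA, and these values are descriptions.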
